A study of Mus musculus with 20 samples.

Results

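The cytochromes P450 of families 1 to 3, the enzymes that carry out most drug and steroid oxidation in liver, were compared across 4 groups of mouse liver by subfamily. The members were all genes with a symbol of Cyp1, Cyp2 or Cyp3 followed by a letter, without Cyp2b9, Cyp2b13, Cyp2d9, Cyp3a41a and Cyp3a44, and with a probe set annotated to that gene alone. They numbered 39 of the 18193 genes measured, in 14 subfamilies, and 34 of them passed a filter on dim genes. Of the 60 protein-coding genes of these families in the RefSeq gene table (GRCm38.p6), 38 are members, and the other member, Cyp2d13, is listed as a transcribed pseudogene. All 20 animals were male BALB/c mice, obtained at 6 weeks of age, with 1 Affymetrix array of liver RNA each. The untreated group ate the AIN93G diet and received no injection. The STZ group received 1 intraperitoneal dose of streptozotocin (STZ, which destroys pancreatic beta cells) at 185 mg/kg and then the same diet. The 2 other groups received STZ in the same way and a diet with 0.1% or 0.5% phloridzin, a plant glucoside that blocks sodium-glucose cotransporters. The diets lasted 14 days. Each group had 6 mice, of which 5 had an array. Since the untreated mice were not injected, the effects of STZ, of its injection and of diabetes cannot be told apart, and STZ also reaches cells other than beta cells. Each array is a different mouse, so p-values measure the spread between mice handled in 1 experiment.

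P450 enzymes insert an atom of oxygen into lipophilic compounds, with electrons from P450 reductase and cytochrome b5 and with heme as the cofactor. In hepatocytes, many genes of families 1 to 3 are switched on by ligand-activated factors: the aryl hydrocarbon receptor acts on the Cyp1 genes, the constitutive androstane receptor CAR (Nr1i3) on Cyp2b and several Cyp2c genes, and the pregnane X receptor PXR (Nr1i2) on Cyp3a genes. Most are more active in hepatocytes near the central vein than near the portal vein, and besides drugs they act on fatty acids, retinoids, bile acids, steroids and vitamin D.

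The deposited signals were on a linear scale, with array medians between 11.2 and 17.1. A group mean at or under 17.1, the highest of these medians, is called not above background here, and no fold is given against it. Differences are of log2(signal + 16) with their standard error, and folds are of signal + 16, which understates the change of dim genes. Called means an adjusted p under 0.05 in the limma fit of all 12947 genes tested. Signals of different members were not set against each other, beyond choosing the brightest of each subfamily. The labelled tissue was checked with hepatocyte markers, which were bright on every array: the summed signal of 9 markers was 84629.7 to 90227 in untreated, 63943 to 87015 in STZ, 81105 to 162775 at 0.1% and 74429 to 86614 at 0.5% phloridzin, and 1 of 9 was lower in STZ liver. The highest sum at 0.1% phloridzin belonged to mouse 4, whose array stood apart. In STZ liver, where 6.9% of all genes were higher and 6.89% lower, 4 of 9 stellate cell markers and 2 of 5 B and plasma cell markers were lower and 0 higher. Lower were also 1 of 2 erythroid markers (median sum 345 against 1335 in untreated liver) and 1 of 2 pancreas markers (544 against 1569). Of 4 cholangiocyte markers 1 was lower, and 0 markers of these lists were higher. Over all arrays the median signal was 528 for Alas2 and at most 12.3 for the other erythroid markers. It was 712 for Cela1 and at most 21.1 for the other pancreas markers. These sums thus follow mostly Alas2 and Cela1 and do not show a fall of either list as a whole. The highest erythroid sum in STZ liver was 1374, above the untreated median. Of 11 Kupffer cell markers 1 was higher and 0 lower, and of 9 sinusoidal endothelium markers 1 was higher and 1 lower. Their part in the results was not tested. Fewer cells of a type and less RNA per cell cannot be told apart in bulk tissue.

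In STZ liver, 16 of the 34 members tested differed from untreated liver, 6 higher and 10 lower, while 13.8% of all genes tested were called (6.9% higher and 6.89% lower). With each array centred on its median the members were split into 7 higher and 7 lower, and over all genes the share of calls that were higher went from 50.03% to 69.1%. The median difference was −0.12 over the members and −0.05 over all genes. The groups did not overlap for 14 members, against 12.9% of all genes, and these 14 were all among the 16 called. The higher members were Cyp2b10, Cyp2c37, Cyp2c38, Cyp2c39, Cyp2c54 and Cyp2g1. The lower ones were Cyp1a2, Cyp2c29, Cyp2c55, Cyp2c68, Cyp2c70, Cyp2d13, Cyp2d40, Cyp2j5, Cyp2r1 and Cyp2u1. Cyp2e1, Cyp3a11, Cyp3a25, Cyp2a12, Cyp2d10, Cyp2d26 and Cyp2f2, which are known as abundant liver P450s, were not called. The 5 remaining members were too dim for the filter (Cyp2b19, Cyp2c65, Cyp2j11, Cyp2j13 and Cyp3a16), and Cyp2d34 and Cyp2s1 passed it without rising above background in any group. No called member passed the filter only through its brighter group. Among P450 genes of other families, 10 of 24 tested were called, 6 higher and 4 lower.

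**Figure D1:**
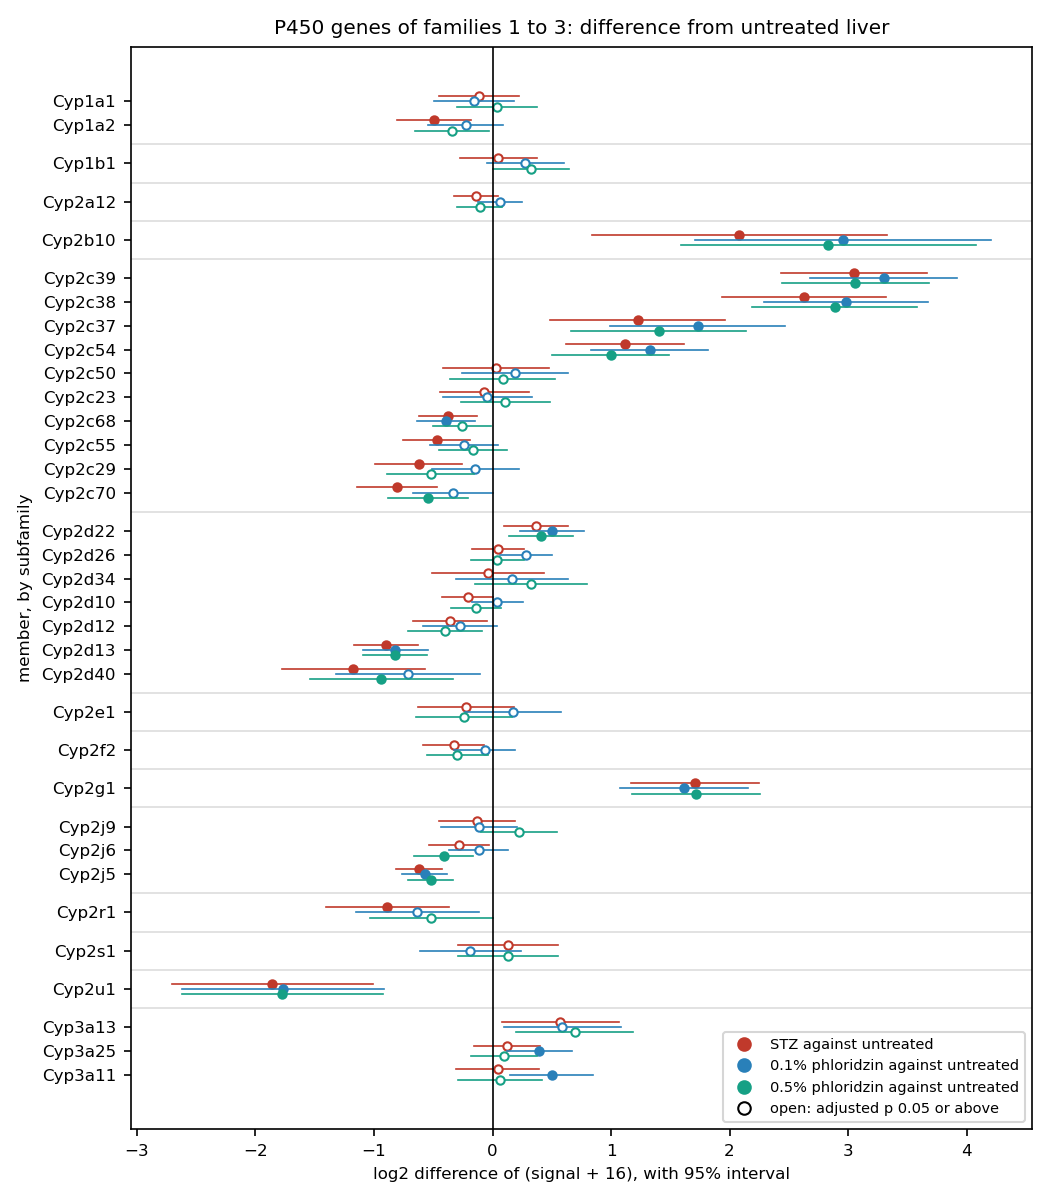
Log2 difference of signal + 16 from untreated liver (horizontal axis) for the 34 members tested, grouped by subfamily (vertical axis), in STZ mice and in STZ mice given 0.1% or 0.5% phloridzin; the points are differences, lines 95% intervals, and filled points are called. Cyp2c39 lies at 3.05 in STZ mice and Cyp2u1 at −1.86, and for members with a group mean not above background, such as Cyp2b10 and Cyp2c37, the position depends on the 16 added to the signal.

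The Cyp2c subfamily held calls in both directions. Of its 10 members tested, 4 were higher and 4 lower in STZ liver, against 6.9% and 6.89% of all genes. The groups did not overlap for 7 of them, against 12.9% of all genes, and the median difference over the Cyp2c members was −0.02. These enzymes oxidise arachidonic acid and other fatty acids as well as drugs, and the measured genes are all on chromosome 19. In the order of the RefSeq table the measured members were Cyp2c55, Cyp2c65, Cyp2c29, Cyp2c39, Cyp2c38, Cyp2c68, Cyp2c37, Cyp2c54, Cyp2c50, Cyp2c70 and Cyp2c23. This table places Cyp2c39 before Cyp2c38, although a second start listed for Cyp2c39 lies beyond that of Cyp2c38. Cyp2c29 was lower, and its neighbours Cyp2c39 and Cyp2c38 were higher. Among Cyp2c37, Cyp2c54 and Cyp2c50, which also lie next to each other, the first pair was higher and Cyp2c50 was not called. The transcripts of this subfamily are much alike, and binding of a transcript to the probes of a neighbour was not tested.

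The start regions of 5 of these genes are shown because neighbours with similar sequence had unlike calls. Each is the 250 bases before a RefSeq start, GRCm38.p6, read 5′ to 3′ on the gene's strand. The positions are chr19:39286835-39287084 on the plus strand for Cyp2c29, chr19:39463076-39463325 on the minus strand for Cyp2c38, and chr19:39347096-39347345 on the plus strand and chr19:39510572-39510821 on the plus strand for the 2 starts listed for Cyp2c39. They are chr19:39992174-39992423 on the plus strand for Cyp2c37 and chr19:40089429-40089678 on the plus strand for Cyp2c50. Capitals mark AGGTCA, the core element of many nuclear receptors, and TGTTTNC, a forkhead motif, each searched on both strands. The first was found in 14.02% and the second in 17.84% of all 32851 start regions in the table, and the capitals do not overlap.
Cyp2c29: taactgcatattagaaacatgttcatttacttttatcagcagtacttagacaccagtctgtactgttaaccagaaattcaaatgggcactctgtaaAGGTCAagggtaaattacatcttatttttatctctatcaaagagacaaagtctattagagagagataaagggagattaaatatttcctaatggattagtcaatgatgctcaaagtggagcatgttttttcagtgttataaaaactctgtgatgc
Cyp2c39 start 1: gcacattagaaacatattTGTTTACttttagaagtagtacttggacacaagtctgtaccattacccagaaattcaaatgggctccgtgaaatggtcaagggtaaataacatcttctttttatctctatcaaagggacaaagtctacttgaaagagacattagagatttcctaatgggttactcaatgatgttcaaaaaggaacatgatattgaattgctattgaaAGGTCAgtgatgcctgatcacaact
Cyp2c39 start 2: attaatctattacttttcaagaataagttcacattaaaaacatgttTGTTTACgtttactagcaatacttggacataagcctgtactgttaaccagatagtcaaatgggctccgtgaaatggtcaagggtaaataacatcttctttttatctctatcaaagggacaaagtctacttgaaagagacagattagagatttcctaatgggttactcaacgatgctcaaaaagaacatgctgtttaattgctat
Cyp2c38: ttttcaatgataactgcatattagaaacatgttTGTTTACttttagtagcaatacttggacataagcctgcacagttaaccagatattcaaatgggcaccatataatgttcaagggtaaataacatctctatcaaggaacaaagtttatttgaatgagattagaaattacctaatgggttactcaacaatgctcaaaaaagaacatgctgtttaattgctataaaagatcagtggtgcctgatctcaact
Cyp2c37: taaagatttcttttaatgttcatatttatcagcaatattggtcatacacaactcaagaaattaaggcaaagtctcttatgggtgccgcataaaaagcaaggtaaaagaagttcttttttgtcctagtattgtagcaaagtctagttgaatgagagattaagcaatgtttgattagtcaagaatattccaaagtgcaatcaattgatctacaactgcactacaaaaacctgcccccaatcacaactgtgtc
Cyp2c50: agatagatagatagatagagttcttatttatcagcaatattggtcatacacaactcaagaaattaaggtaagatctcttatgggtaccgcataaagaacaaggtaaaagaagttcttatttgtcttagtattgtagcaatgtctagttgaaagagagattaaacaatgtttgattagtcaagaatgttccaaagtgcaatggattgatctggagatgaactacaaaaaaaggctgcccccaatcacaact
In global alignments with gaps counted as mismatches, Cyp2c29 was 74.14% and 68.13% identical to the 2 starts of Cyp2c39 and 68.75% identical to Cyp2c38. Cyp2c37 and Cyp2c50 were 84.31% identical, and neither held a match to the motifs. A match is a run of letters and not a measured binding site, and a missing match says only that the letters are not in the window.

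Cyp2c39 signals were 199, 278, 328, 521 and 359 in untreated mice and 1418, 3239, 2782, 3059 and 4217 in STZ mice. With phloridzin, Cyp2c39 signals were 2112, 2433, 4266, 4261 and 4239 at 0.1% and 3817, 1865, 2275, 2470.0 and 4302 at 0.5%. Each of the 15 STZ-injected mice exceeded every untreated mouse. The enzyme hydroxylates retinoic acid. Its mean was 2943 ± 1009 (SD, n = 5) in STZ and 337 ± 119 (SD, n = 5) in untreated liver, 8.28-fold higher (3.05 ± 0.30, adjusted p = 1.5e-06).

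Cyp2c38 signals were 119, 196, 210.0, 416 and 242 in untreated mice and 638, 1565, 1459.9, 1657 and 2515 in STZ mice. With phloridzin, Cyp2c38 signals were 1253, 1447, 2465, 2089 and 2297 at 0.1% and 2473, 1035, 1439, 1537 and 2670.2 at 0.5%. The untreated mice were again the 5 lowest. Cyp2c38, an arachidonic acid oxidase, was 6.18-fold higher in STZ liver (2.63 ± 0.33, adjusted p = 3.16e-05). STZ mouse 1 had the lowest signal of the injected mice for both genes.

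Cyp2c29, an epoxygenase of arachidonic acid and a known target of CAR, differed in the other direction. Cyp2c29 signals were 9996, 10051, 10535, 11172 and 11058 in untreated mice and 9601, 6163, 6503, 5334 and 7381 in STZ mice. With phloridzin, Cyp2c29 signals were 9950.2, 8873, 9658, 15176 and 6126 at 0.1% and 7463, 8339, 6329.9, 6916 and 7843 at 0.5%. Every STZ mouse was below every untreated mouse, while mouse 4 at 0.1% phloridzin was above them all. The fall in STZ liver was 1.54-fold (−0.62 ± 0.18, adjusted p = 0.0233). It was not called without STZ mouse 2 or 4 (adjusted p = 0.0533 to 0.0675).

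Cyp2c54 ranged from 847 to 1319.8 in untreated and from 1577 to 3078 in STZ mice, without overlap, and was 2.17-fold higher (1.12 ± 0.24, adjusted p = 0.00407). Cyp2c37 was not above background in untreated liver, at 11.8 ± 3.23 (SD, n = 5) against 54.6 ± 32.4 (SD, n = 5) in STZ liver (adjusted p = 0.0255). Its call was lost without untreated mouse 1 or STZ mouse 2 or 5 (adjusted p = 0.0597 to 0.0755). Cyp2c50, beside them on the chromosome, was at 2582 ± 424 (SD, n = 5) and 2684 ± 689 (SD, n = 5), and the interval of its difference was −0.42 to 0.47. Cyp2c70, which makes muricholic acids, the hydrophilic bile acids of rodents, ranged from 5992 to 7339 in untreated and from 2717 to 4825 in STZ mice. It was 1.75-fold lower (−0.81 ± 0.16, adjusted p = 0.0024) with no overlap. Cyp2c68 fell 1.3-fold (adjusted p = 0.0392) with overlapping groups, and 10 of 31 alternatives lost the call, among them median centring (adjusted p = 0.126) and leaving out untreated mouse 1, 2 or 3 or STZ mouse 2, 4 or 5 (adjusted p = 0.0723 to 0.116). Cyp2c55, a gene that CAR and PXR can induce, was at 15.8 ± 2.84 (SD, n = 5), not above background, against 28.1 ± 4.41 (SD, n = 5) in untreated liver. Its adjusted p was 0.0261, and 5 of 30 alternatives lost the call, 3 of them by leaving out untreated mouse 1 or 3 or STZ mouse 3 (adjusted p = 0.0658 to 0.0698). Cyp2c23 was not called (−0.07 ± 0.18).

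**Figure D2:**
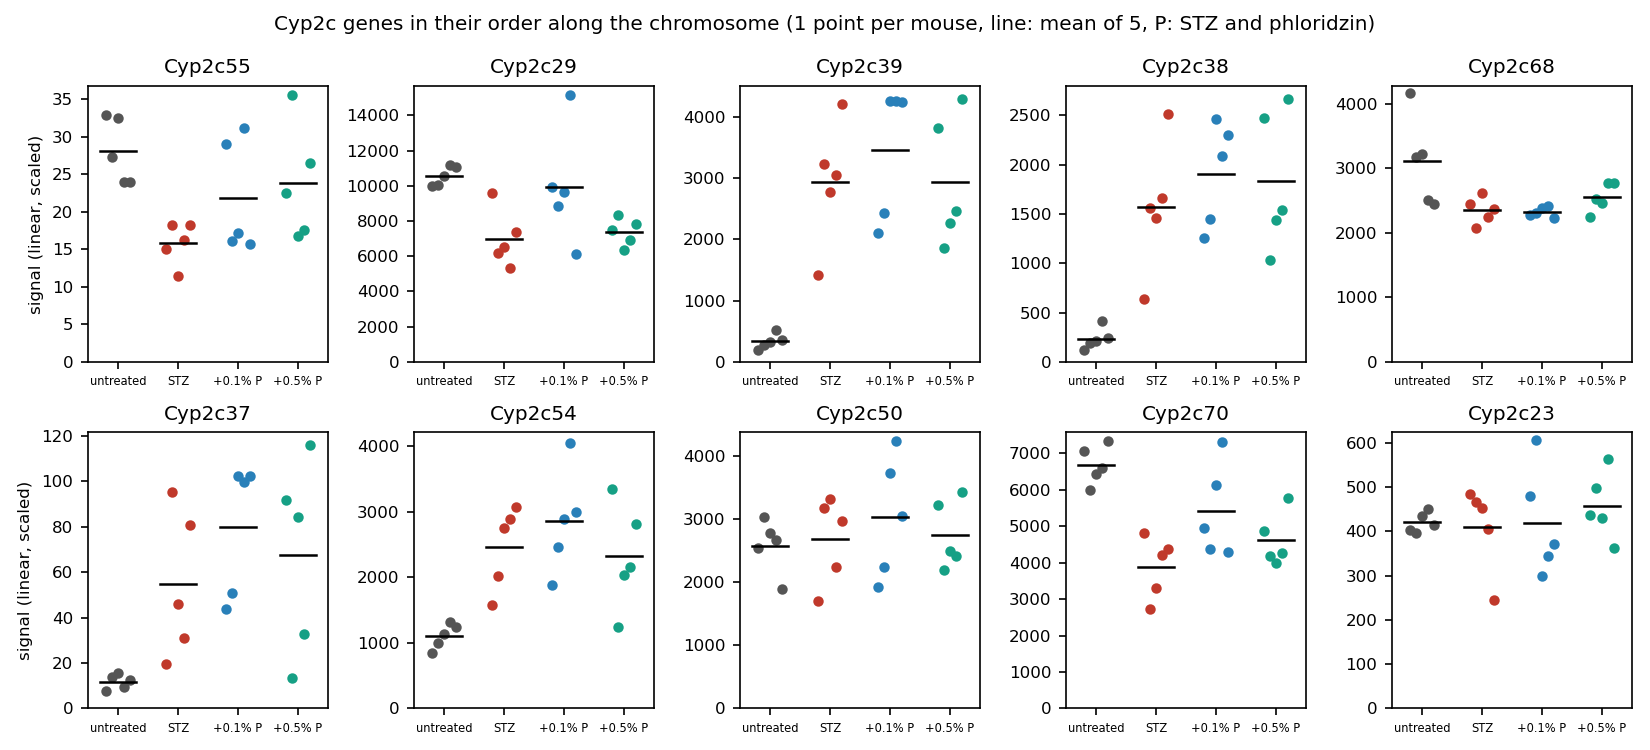
Linear signal (vertical axis) of the 10 Cyp2c genes tested, in the order of the RefSeq table for chromosome 19, for each of 5 mice per group (points) with the group mean (line). Every untreated mouse is below every injected mouse for Cyp2c39 and Cyp2c38, 0.5% mouse 2 lies within the untreated range of Cyp2c37, and the untreated mean is the highest of the 4 for Cyp2c29, Cyp2c55, Cyp2c68 and Cyp2c70.

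Cyp2b10 is the classical gene of the phenobarbital response and is read as a sign of CAR activity. Cyp2b10 signals were 9.68, 15.4, 22.4, 19.3 and 13.6 in untreated mice and 36.0, 232, 62.6, 113 and 322 in STZ mice. With phloridzin, Cyp2b10 signals were 61.5, 168, 428, 356 and 375 at 0.1% and 336, 61.2, 241, 77.6 and 896 at 0.5%. The untreated mice spanned a range that ended below the lowest injected mouse, and the injected mice differed widely among themselves. The untreated mean of 16.1 ± 4.94 (SD, n = 5) was not above background, so no fold is given against the 153 ± 121 (SD, n = 5) of STZ liver (adjusted p = 0.0247). Its call was lost without untreated mouse 1 or STZ mouse 2 or 5 (adjusted p = 0.0558 to 0.0783). The other 2 Cyp2b10 probe sets had means of 115 and 104 in STZ liver and of 10.5 and 5.39, not above background, in untreated liver.

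Cyp2g1, a P450 best known from the olfactory mucosa, ranged from 13.2 to 35.3 in untreated and from 82.1 to 170.0 in STZ liver. It was 3.27-fold higher (1.71 ± 0.26, adjusted p = 0.000218) with no overlap. Cyp2a12, which acts on bile acids, was at 4944 ± 351 (SD, n = 5) in STZ and 5432 ± 162 (SD, n = 5) in untreated liver and was not called (−0.14 ± 0.09, adjusted p = 0.335). Cyp2f2 signals were 8159.5, 7938, 7771, 7948 and 8378 in untreated mice and 8158, 4727, 6228, 7227 and 6180.5 in STZ mice. With phloridzin, Cyp2f2 signals were 7346, 8499, 7323, 9092 and 6426 at 0.1% and 6539.9, 7270.0, 6278, 6960.0 and 5759.7 at 0.5%. Cyp2f2 activates naphthalene and is also known from the lung, whose club cell marker Scgb1a1 had a median signal of 2.23 over the 20 arrays. Of 3 tested lung markers 1 was higher in STZ liver, with overlapping groups, and 0 lower. These markers are dim: of 5 on the array, 0 were above background in untreated and 1 in STZ liver. The groups of Cyp2f2 overlapped by 1 STZ mouse, mouse 1, and Cyp2f2 was not called (−0.33 ± 0.12, adjusted p = 0.0826).

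In the Cyp1 family, Cyp1a2 was the member called. Cyp1a2 signals were 5029, 4455, 4529, 4013 and 4289.9 in untreated mice and 3544, 2544, 3852, 3169 and 2861 in STZ mice. With phloridzin, Cyp1a2 signals were 2906, 3424, 4464, 4584 and 3888 at 0.1% and 3802, 2382, 4064, 3811 and 3774 at 0.5%. Every STZ mouse was below every untreated mouse, and the 2 phloridzin groups overlapped with the untreated one. Cyp1a2, the main caffeine-oxidising enzyme, was 1.41-fold lower in STZ liver (−0.49 ± 0.15, adjusted p = 0.0344). The call was lost in 8 of 31 alternatives: with median centring (adjusted p = 0.0918) and without untreated mouse 1, 2, 3 or 5 or STZ mouse 2, 4 or 5 (adjusted p = 0.0512 to 0.0928). Cyp1a1 signals were 18.9, 27.8, 36.7, 23.3 and 30.7 in untreated mice and 20.6, 34.6, 20.8, 18.1 and 26.8 in STZ mice. With phloridzin, Cyp1a1 signals were 13.4, 19.4, 41.0, 18.0 and 26.7 at 0.1% and 25.7, 24.4, 41.8, 27.3 and 24.4 at 0.5%. These dim signals overlapped in all groups. Cyp1a1, a strongly inducible target of the aryl hydrocarbon receptor, was not called (−0.11 ± 0.16, adjusted p = 0.691). Cyp1b1 signals were 9.19, 5.09, 11.1, 23.4 and 14.7 in untreated mice and 19.5, 9.96, 15.4, 7.79 and 14.1 in STZ mice. With phloridzin, Cyp1b1 signals were 17.7, 10.6, 19.5, 19.9 and 23.8 at 0.1% and 28.6, 20.1, 16.8, 17.5 and 14.3 at 0.5%. Cyp1b1, which oxidises estrogens mainly outside the liver, was above background as a mean in the phloridzin groups alone, and no difference was called.

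Of the 7 Cyp2d members, 2 were lower in STZ liver and 0 higher, with 6.89% of all genes lower and 6.9% higher. Cyp2d13, the transcribed pseudogene, was at 332 ± 50.6 (SD, n = 5) against 628 ± 61.2 (SD, n = 5) in untreated liver, without overlap, and 1.86-fold lower (−0.90 ± 0.13, adjusted p = 0.000134). Cyp2d40 was 2.26-fold lower (−1.18 ± 0.29, adjusted p = 0.0103), and its groups overlapped: STZ mouse 1 had a signal of 102 while the other STZ mice lay between 21.7 and 35.0. Cyp2d22 signals were 994, 1017, 853, 1133 and 738 in untreated mice and 1105, 1176, 1296, 1169 and 1339 in STZ mice. With phloridzin, Cyp2d22 signals were 1099, 1273, 1408, 1455 and 1463 at 0.1% and 1387, 968, 1228, 1195 and 1550.1 at 0.5%. The untreated and STZ groups overlapped by 1 untreated mouse, mouse 4. Cyp2d22 did not pass the test in STZ liver (0.37 ± 0.13, adjusted p = 0.0616), and did so in 7 of 31 alternatives. Cyp2d10 and Cyp2d26 had differences of −0.21 ± 0.10 and 0.05 ± 0.11 and were not called. The Cyp2d transcripts are also much alike.

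Cyp2e1 oxidises ethanol, acetone and small solvents. Cyp2e1 signals were 14354, 13086, 13024, 13550.1 and 17422 in untreated mice and 14276, 9813, 11008, 14862 and 11637 in STZ mice. With phloridzin, Cyp2e1 signals were 12906, 17148, 13761, 30644 and 11227 at 0.1% and 13970.5, 12585, 11696, 10950.4 and 11156 at 0.5%. The groups overlapped, and mouse 4 at 0.1% phloridzin was far above the rest. In STZ liver the difference was −0.22 ± 0.20 with an interval of −0.63 to 0.18 (adjusted p = 0.488). Cyp2j5 signals were 4189, 4219, 4181, 4252 and 3819.7 in untreated mice and 2843, 2571, 2981, 2343 and 2713 in STZ mice. With phloridzin, Cyp2j5 signals were 3223, 2874, 2766, 2481 and 2575 at 0.1% and 2747, 3039, 3118, 2945 and 2533 at 0.5%. All 15 injected mice were below all untreated mice for Cyp2j5, an epoxygenase of arachidonic acid that was 1.54-fold lower in STZ liver (−0.62 ± 0.09, adjusted p = 0.000174). Of the other 2 Cyp2j genes tested, Cyp2j6 had a difference of −0.28 ± 0.12 and Cyp2j9 of −0.13 ± 0.15, neither called.

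The vitamin D and fatty acid enzymes Cyp2r1 and Cyp2u1 were both lower. Cyp2u1, a hydroxylase of long-chain fatty acids, ranged from 185 to 245 in untreated and from 19.5 to 128 in STZ liver. It was 3.63-fold lower (−1.86 ± 0.41, adjusted p = 0.0049), and STZ mouse 1 was nearest to the untreated mice. Its second, dimmer probe set fell by 1.01 log2 units. Cyp2r1, which hydroxylates vitamin D in the liver, was at 43.6 ± 15.6 (SD, n = 5) against 91.1 ± 14.6 (SD, n = 5) and 1.85-fold lower (−0.89 ± 0.25, adjusted p = 0.0221). Its groups did not overlap, and the call was lost without untreated mouse 3 or STZ mouse 5 (adjusted p = 0.0518 to 0.0725).

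The 3 Cyp3a members tested, known for oxidising steroids and many drugs under PXR, were not called in STZ liver. Cyp3a11 signals were 8987, 8839, 9675, 10506 and 11425 in untreated mice and 11047, 8792, 8954, 11540.2 and 10645 in STZ mice. With phloridzin, Cyp3a11 signals were 10891, 14136, 12872, 24890.1 and 10538 at 0.1% and 11286, 10664, 9526, 9659.5 and 10405 at 0.5%. The signals of untreated, STZ and 0.5% mice overlapped widely, and mouse 4 at 0.1% phloridzin was again the highest. Cyp3a11 differed by 0.04 ± 0.17 in STZ liver, with an interval of −0.31 to 0.39. Cyp3a25 signals were 6323, 7077, 7053, 7466 and 7869 in untreated mice and 8016, 7493, 7291, 8348 and 7851 in STZ mice. With phloridzin, Cyp3a25 signals were 7554, 9839, 8703, 14655 and 7750.2 at 0.1% and 7805, 8359.6, 7259, 7200.0 and 7663 at 0.5%. The untreated and STZ mice overlapped for Cyp3a25 too, mouse 4 at 0.1% was the highest, and the difference was 0.13 ± 0.13 in STZ liver. Cyp3a13 signals were 236, 264, 254, 240.1 and 209 in untreated mice and 247, 395, 405, 287 and 564 in STZ mice. With phloridzin, Cyp3a13 signals were 291, 264, 502, 364 and 482 at 0.1% and 412, 265, 487, 274 and 674 at 0.5%. Cyp3a13 was uneven within each injected group, and its difference in STZ liver was 0.57 ± 0.24 (adjusted p = 0.115).

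**Figure D3:**
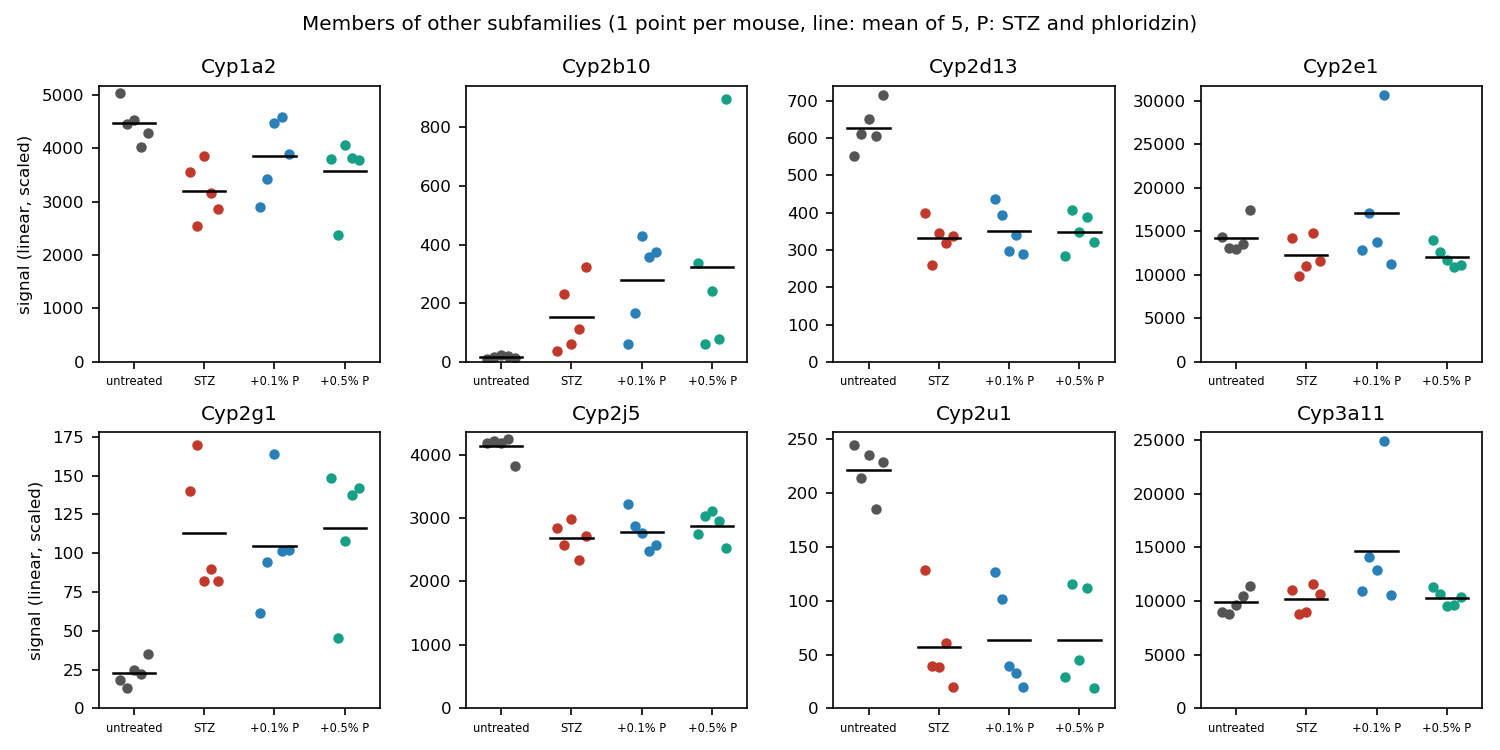
Linear signal (vertical axis) of 8 members of other subfamilies for each of 5 mice per group (points) with the group mean (line). Cyp2d13, Cyp2j5 and Cyp2u1 are higher in every untreated mouse than in any injected mouse, Cyp2b10 and Cyp2g1 lower, and mouse 4 at 0.1% phloridzin is the highest point for Cyp2e1 (30644) and Cyp3a11 (24890.1).

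Phloridzin was then compared with STZ alone, to see whether either dose changed these genes in diabetic liver. With limma, 0 of 34 members and 0% of all genes were called at 0.1%, at 0.5% and between the doses, and for 0 members did the groups fail to overlap in the 3 comparisons (0.68%, 0.842% and 0.803% of all genes). No member was called by any of the 31 alternatives either. The median differences over the members were 0.22, 0.09 and −0.11, and over all genes −0.0039, 0.021 and 0.022. Over the 9 hepatocyte markers tested they were 0.30, 0.04 and −0.28. At an unadjusted p under 0.05, 7 members passed at 0.1% phloridzin, all of them higher, against 5.29% of all genes. They were Cyp2a12, Cyp2c29, Cyp2c70, Cyp2d10, Cyp2d26, Cyp2f2 and Cyp3a11. Without mouse 4 at 0.1% the number was 2, against 3.55% of all genes. At 0.5% it was 2 (Cyp2c55 and Cyp2j9) against 4.80% of all genes. Between the doses it was 7 against 6.49%, and 1 without mouse 4 at 0.1% (4.86%). Of the 7, Cyp2j9 was higher at 0.5%. Cyp2c29, Cyp2d26, Cyp2e1, Cyp2j6, Cyp3a11 and Cyp3a25 were lower.

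The intervals bound what these comparisons could show. For Cyp2c39, Cyp2c38, Cyp2b10 and Cyp2g1, which were higher in STZ liver, the difference at 0.1% phloridzin was 0.25 ± 0.30 for Cyp2c39 (95% interval −0.37 to 0.87), 0.36 ± 0.33 for Cyp2c38 (−0.33 to 1.05), 0.88 ± 0.60 for Cyp2b10 (−0.37 to 2.12) and −0.09 ± 0.26 for Cyp2g1 (−0.64 to 0.45). At 0.5% it was 0.01 ± 0.30 for Cyp2c39 (−0.61 to 0.63), 0.26 ± 0.33 for Cyp2c38 (−0.43 to 0.95), 0.75 ± 0.60 for Cyp2b10 (−0.50 to 2.00) and 0.01 ± 0.26 for Cyp2g1 (−0.53 to 0.55). For Cyp2c39, Cyp2c38 and Cyp2g1 the lower ends were smaller in size than the difference of STZ from untreated liver. The same held for Cyp2b10, whose difference in STZ liver was 2.08 ± 0.60 and depends on the 16 added to the signal. Cyp2b10 had the widest interval of the members. Of the lower genes, Cyp2u1 had differences of 0.09 ± 0.41 and 0.09 ± 0.41, and Cyp2j5 of 0.05 ± 0.09 (−0.14 to 0.24) and 0.10 ± 0.09 (−0.09 to 0.29) at 0.1% and 0.5%. Cyp2c29, lower in STZ liver, differed at 0.1% phloridzin by 0.48 ± 0.18 (adjusted p = 0.921), and mouse 4 was the highest of that group.

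**Figure D4:**
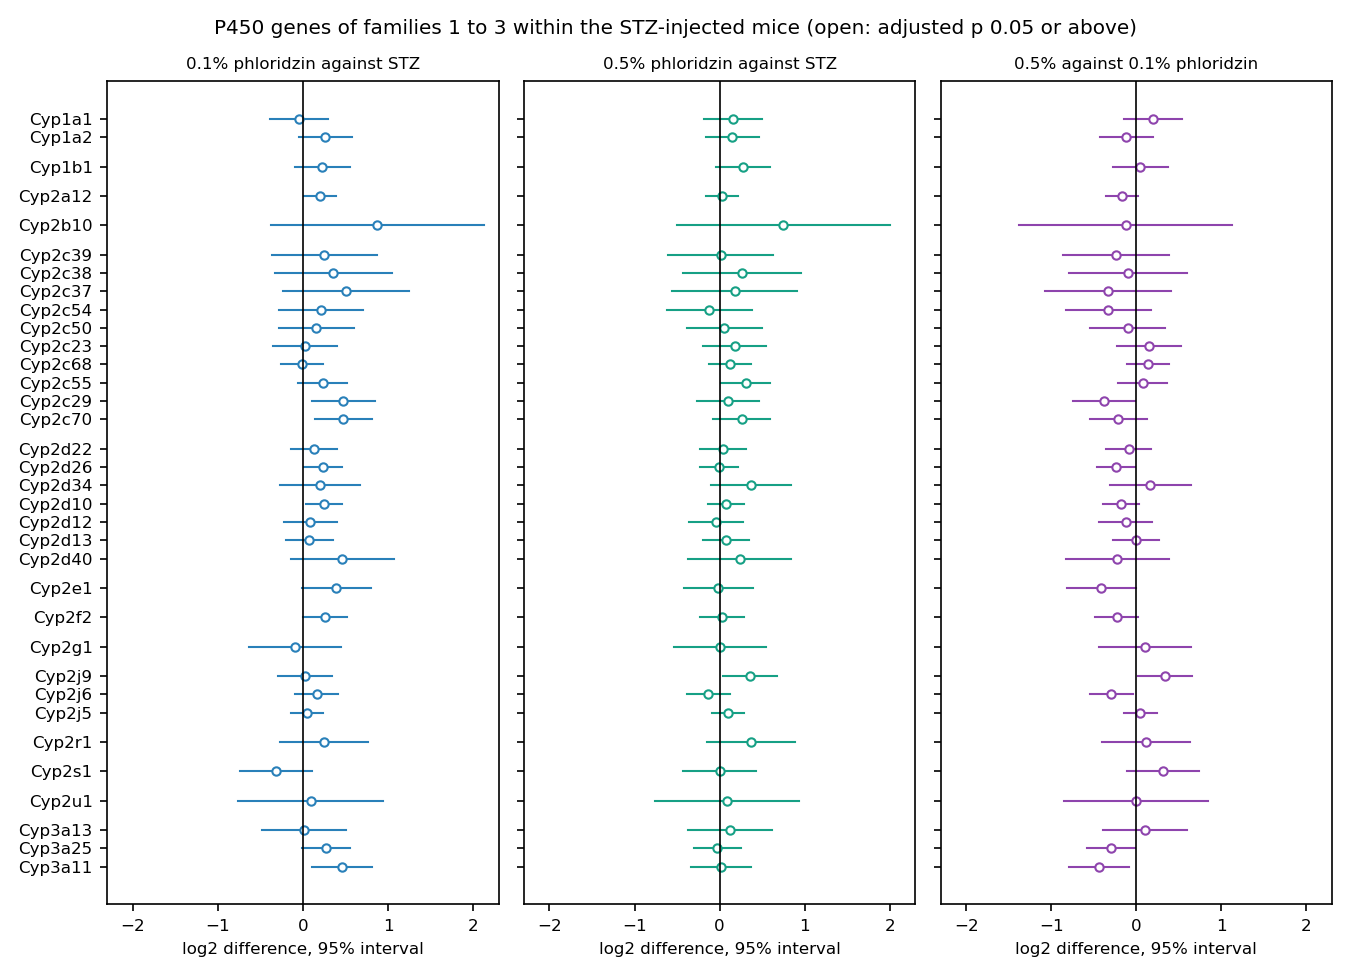
Log2 difference of signal + 16 (horizontal axis) with 95% interval for the 34 members tested, by subfamily (vertical axis), in the 3 comparisons among STZ-injected mice. All points are open, for 0 of 34 members called in each comparison, and the intervals of Cyp2b10 are the widest.

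Against untreated liver, the phloridzin groups were compared by the same fit. These comparisons share their untreated mice with the STZ comparison, so their values are given side by side and not set against it. At 0.1% phloridzin 13 members were called, 9 higher and 4 lower, with 16.7% of all genes called (7.76% higher and 8.98% lower). At 0.5% it was 13 as well, 7 higher and 6 lower, with 12.7% of all genes called (6.53% higher and 6.18% lower). The groups did not overlap for 10 members at 0.1% and 14 at 0.5%, against 13.2% and 11.1% of all genes. All 10 of these members were called at 0.1%, and 9 of the 14 at 0.5%. Cyp2c39 was 9.86-fold and 8.35-fold higher at the 2 doses (adjusted p = 5.41e-07 and 1.52e-06), and Cyp2c38 7.92-fold and 7.39-fold. Cyp2b10 reached 278 ± 156 (SD, n = 5) and 322 ± 341 (SD, n = 5) (adjusted p = 0.00239 and 0.00416). Cyp2c37, Cyp2c54 and Cyp2g1 were also higher at both doses. Cyp2d22 was 1.42-fold and 1.33-fold higher (adjusted p = 0.0112 and 0.04), and the second call was lost in 11 of 31 alternatives, among them without untreated mouse 1, 2, 3 or 5 or 0.5% mouse 1, 3 or 5 (adjusted p = 0.0534 to 0.126). Cyp2d13, Cyp2j5 and Cyp2u1 were lower at both doses, Cyp2u1 by 3.41-fold and 3.42-fold.

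Some members were called against untreated liver at 1 of the 2 doses. At 0.1% these were Cyp3a11 (1.41-fold higher, adjusted p = 0.0478), Cyp3a25 (1.32-fold higher, adjusted p = 0.0461) and Cyp2c68 (1.31-fold lower, adjusted p = 0.0282). Without mouse 4 at 0.1% the Cyp3a11 difference was 0.29 (adjusted p = 0.108) and that of Cyp3a25 0.24 (adjusted p = 0.109), and 20 and 19 of 31 alternatives lost these calls. The Cyp3a11 call was lost without untreated mouse 1, 2, 3 or 4 or any STZ mouse or 0.1% mouse 2, 3 or 4 or any 0.5% mouse (adjusted p = 0.0514 to 0.108), that of Cyp3a25 without untreated mouse 1, 2, 3 or 4 or any STZ mouse or 0.1% mouse 2, 3 or 4 or 0.5% mouse 1, 3, 4 or 5 (adjusted p = 0.0509 to 0.11) and that of Cyp2c68 without untreated mouse 1, 2 or 3 or 0.1% mouse 5 (adjusted p = 0.0597 to 0.0863). At 0.5% they were Cyp2c70 (1.46-fold lower, adjusted p = 0.0312), Cyp2d40 (1.92-fold lower, adjusted p = 0.0377) and Cyp2j6 (1.33-fold lower, adjusted p = 0.0297). Alternatives lost these calls in 7, 9 and 6 of 31 cases. Cyp2c70 was not called without untreated mouse 1, 3, 4 or 5 or 0.5% mouse 1, 3 or 4 (adjusted p = 0.0502 to 0.0775), Cyp2d40 without untreated mouse 2, 3, 4 or 5 or 0.5% mouse 1, 3 or 5 (adjusted p = 0.0565 to 0.12) and Cyp2j6 without untreated mouse 1, 2 or 3 or 0.5% mouse 1 or 5 (adjusted p = 0.0518 to 0.0899). Between the doses the difference was −0.43 ± 0.17 for Cyp3a11, −0.30 ± 0.13 for Cyp3a25 and −0.29 ± 0.12 for Cyp2j6, none of them called (adjusted p = 0.753 for each), so the doses were not shown to differ. A second Cyp2j6 probe set had a similar untreated mean (231 against 233 for the used one) but another pattern. It differed from untreated liver by −0.60 at 0.1% and −0.54 at 0.5% phloridzin, and by 0.06 between the doses. The Cyp2j6 call at 0.5% alone thus rests on the used probe set.

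The injected mice of 1 group differed widely in Cyp2b10, and the other members were related to it across the 15 injected mice after each group's mean was taken away. This relation was chosen after the data had been seen. Cyp2b10 and all other genes were compared by a permutation test of 100000 shuffles within groups, two-sided, adjusted over 12946 genes. Of 33 members 11 were called, 6 rising with Cyp2b10 and 5 falling, while 11.8% of all genes were called (4.97% with it and 6.79% against it). An absolute r of at least 0.5 was reached by 17 members and by 35.5% of all genes. Cyp2c37 (r = 0.91, rho = 0.93), Cyp2c39 (r = 0.89, rho = 0.90), Cyp2c38 (r = 0.86, rho = 0.87) and Cyp3a13 (r = 0.87, rho = 0.83) rose with it. Their permutation p for r were 4e-05, 2e-05, 5e-05 and 0.00051, and the adjusted p 0.00908, 0.00809, 0.00981 and 0.0175. For rho the permutation p were 1e-05, the smallest that these shuffles can give, for Cyp2c37 and Cyp2c39, and 0.00015 and 0.00099 for the other 2. Cyp2d22 (r = 0.84, rho = 0.82, permutation p = 0.00056 and 0.00118) and Cyp2c50 (r = 0.75, rho = 0.68, permutation p = 0.00185 and 0.00891) also rose with it, and Cyp2c50 was not called by rho (adjusted p = 0.0694).

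Cyp2u1 (r = −0.90, rho = −0.87) and Cyp2d40 (r = −0.82, rho = −0.81) fell as Cyp2b10 rose, with permutation p for r of 9e-05 and 0.00036 and for rho of 0.00015 and 0.00122. Cyp2r1 (r = −0.80, rho = −0.76, permutation p = 0.00086 and 0.00191), Cyp2d13 (r = −0.79, rho = −0.81, permutation p = 0.00139 and 0.00094) and Cyp2c23 (r = −0.72, rho = −0.73, permutation p = 0.00206 and 0.00412) did so too. Cyp3a11 was not called (r = 0.16, rho = −0.02, permutation p = 0.584 and 0.954), nor was Cyp2e1 (r = −0.02, rho = −0.20, permutation p = 0.954 and 0.49). Leaving out the 2 mice farthest from the median of Cyp2b10, mouse 1 at 0.1% and mouse 5 at 0.5%, gave r of 0.91 for Cyp2c37, 0.86 for Cyp2c39 and −0.88 for Cyp2u1. Over the 11 called members r was 0.69 to 0.91 for those rising and −0.88 to −0.70 for those falling. The group means taken away here still included the 2 mice, so this check does not fully remove their influence. The count of called members rests in part on single mice: it was 4 without STZ mouse 1, when 1.59% of all genes were called, and 7 without mouse 2 at 0.5%, when 4.34% were. Over the 15 mice left out in turn the range was 4 to 12 members and 1.59% to 16.7% of all genes. The relation was not tested within single groups of 5 mice.

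**Figure D5:**
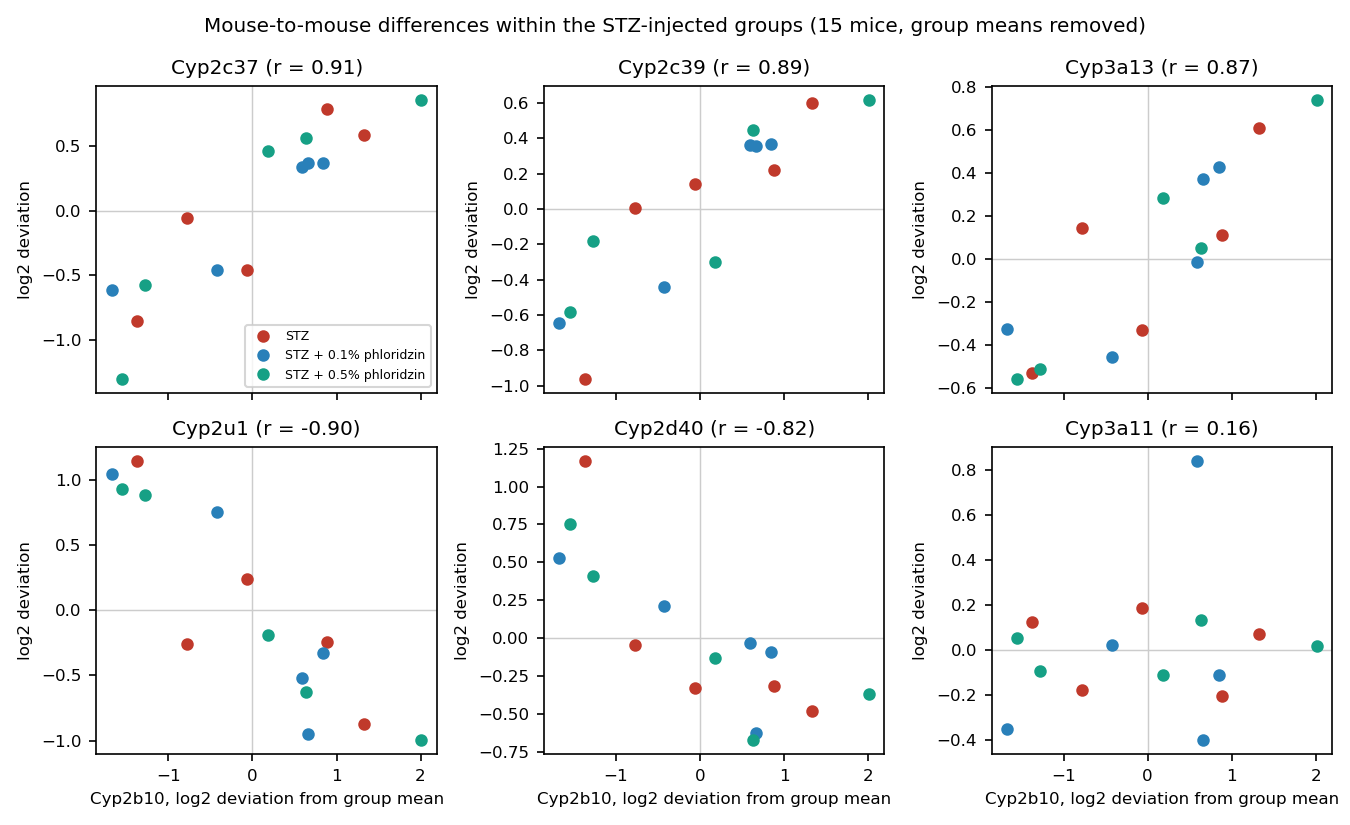
Deviation of log2(signal + 16) from the group mean for 6 members (vertical axes) against that of Cyp2b10 (horizontal axes), 1 point per injected mouse, coloured by group. Cyp2c37, Cyp2c39 and Cyp3a13 rise from left to right, Cyp2u1 and Cyp2d40 fall, and Cyp3a11 is scattered (r = 0.16).

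The genes that serve these enzymes were read from lists chosen with earlier results known. Of 12 tested genes of electron transfer and heme supply, 3 were higher and 1 lower in STZ liver, with a median difference of −0.10. The P450 reductase gene Por had no probe set annotated to it alone and was not tested. Over all genes, 6.9% were higher and 6.89% lower, with a median of −0.05, which is the background for each list that follows. Alas1, the rate-limiting enzyme of heme synthesis, rose 5.29-fold (adjusted p = 0.00557), the heme enzyme Urod 1.37-fold (adjusted p = 0.038) and the biliverdin reductase Blvrb 1.61-fold (adjusted p = 0.000935). Cyb5r3, which feeds electrons to cytochrome b5, fell 1.46-fold (adjusted p = 0.0144). Of 19 tested receptors and partner factors, 4 were higher and 1 lower (median −0.08). These were the CAR gene Nr1i3, 1.8-fold (adjusted p = 0.00123), the PXR gene Nr1i2, 1.59-fold (adjusted p = 0.00497), the aryl hydrocarbon receptor Ahr, 1.42-fold (adjusted p = 0.00591), the stress factor Nfe2l2, 1.38-fold (adjusted p = 0.0178), and, lower, the liver factor Foxa1, 1.75-fold (adjusted p = 0.000249). Rxra, the common partner of CAR and PXR, and Ppara were not called (adjusted p = 0.457 and 0.643). Across the 15 injected mice, Nr1i3 (r = 0.69, rho = 0.66, permutation p = 0.00698 and 0.0153), Alas1 (r = 0.69, rho = 0.66, permutation p = 0.00623 and 0.00869) and Nr1i2 (r = 0.66, rho = 0.65, permutation p = 0.0215 and 0.0213) had positive relations to Cyp2b10 that did not pass the adjustment (0.0547, 0.0513 and 0.0995 for r). Of 26 tested conjugation and other xenobiotic genes 11 were higher and 5 lower (median 0.16). Among markers of the lobule zones without P450 genes, 3 of 13 pericentral genes were higher and 3 lower, and 3 of 10 periportal genes were higher and 1 lower.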

How the data were processed

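Total RNA of liver was measured on Affymetrix mouse 430 2.0 arrays, 1 per mouse, 5 per group. The authors deposited intensity values, a linear signal per probe set whose mean is about 100 on each array once the lowest and highest 2% are dropped. Their software was not given in the sources used here. Among 45101 probe sets, 34945 name 1 gene and 9160 no gene, 932 name several genes and 64 are controls. The brightest single-gene probe set was used per gene, as log2(signal + 16), and a gene was tested if its mean log2 value reached a signal of 8.48, which 40% of probe sets do not.

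A limma 3.58.1 fit (R 4.3.3, lmFit and eBayes) of 4 group means over the 20 arrays gave 6 comparisons, two-sided, with Benjamini-Hochberg adjustment over 12947 genes. It was tested on simulated data. The text names members called in any comparison, the brightest of each subfamily, a panel of drug-metabolising genes, members near background, and called genes of lists. Cyp2c23, Cyp2c50, Cyp2d26 and Cyp2j9 fall outside this rule and were chosen after their values were seen. Members, lists and panel were chosen with earlier results of these data known. Alternatives were quantile normalization, median centring, other filters, probe sets, pseudocount and priors, array weights, 2 groups alone, the replicate number as a block, and leaving out single arrays. Relations used permutation in numpy 2.4.6, and alignments Biopython 1.88. Start regions were found for 31 of 39 members.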

Additional observations from a re-analysis of the deposited data

Results flagged for a closer look

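In 136 sets of 5 mice (34 members in 4 groups), 11 had a highest or lowest mouse far from the others, on the log2 scale, by Dixon's criterion. Chance flags about 1 in 20 such sets.

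In 4 of them the mouse was the highest of its group. These were 0.5% mouse 3 at 41.8 for Cyp1a1, next to 27.3, untreated mouse 5 at 8114 for Cyp2d10, next to 7003, STZ mouse 1 at 23.4 for Cyp2d12, next to 15.4, and STZ mouse 1 at 102 for Cyp2d40, next to 35.0. STZ mouse 1 thus stood out for both Cyp2d12 and Cyp2d40, toward the untreated level.

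In the other 7 the mouse was the lowest. In the 0.5% phloridzin group these were 0.5% mouse 2 at 2382 for Cyp1a2, next to 3774, 0.5% mouse 2 at 45.2 for Cyp2g1, next to 108, 0.5% mouse 5 at 8.58 for Cyp2d12, next to 15.4, and 0.5% mouse 4 at 1.33 for Cyp2d34, next to 16.7. In STZ mice they were STZ mouse 5 at 244 for Cyp2c23, next to 405, and STZ mouse 5 at 17.2 for Cyp2r1, next to 46.3. In untreated mice it was untreated mouse 5 at 3819.7 for Cyp2j5, next to 4181, which was still above all injected mice. No mouse was flagged for more than 2 genes, and Cyp2d12 and Cyp2d34 are near background.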

How the results depend on the processing

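In the 6 comparisons between groups, the counts of called members kept within 1.5 times of the reported values in every alternative, and no member reversed. For STZ against untreated the count was 14 to 21 over 11 other settings and 11 to 17 with each array left out in turn. The calls over all genes were then 1547 to 2851 and 1171 to 1991. Array weights gave both the 21 members and the 2851 genes. For 0.1% phloridzin against untreated the count was 11 to 16 and 10 to 15, with 1879 to 2688 and 1492 to 2620 over all genes. For 0.5% it was 11 to 16 and 9 to 15, with 1403 to 2610 and 944 to 2188. The other settings tested 9802 to 18193 genes, and the fits without 1 array 12947. In these 3 comparisons 9 of 16, 10 of 13 and 9 of 13 called members kept their call in every alternative. The 3 comparisons among injected mice gave 0 in all. Over all genes, array weights raised the calls for STZ against untreated from 1785 to 2851 and for 0.5% phloridzin against untreated from 1646 to 2610, beyond 1.5 times. Leaving out STZ mouse 5 lowered the first to 1171, and leaving out untreated mouse 1, 0.5% mouse 1 or 0.5% mouse 5 lowered the second to 1084, 944 and 980. The cause was not tested.

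Replicate numbers belong to different mice, and the labels name no batch. After removal of group means, 13 of 30 pairs of arrays with the same number correlated above 0.1. Of pairs with unlike numbers 31 of 120 did so, a smaller share. Whether arrays of the same number had a step of handling in common was not tested. With the replicate number as a block, 15 members were called in STZ liver (9 lower). At 0.1% and 0.5% phloridzin against untreated 14 and 13 were called, and 0 in the other comparisons. Of all 12947 genes, the block gave 1923 calls in STZ liver, where the main fit gave 1785. At 0.1% phloridzin against untreated it gave 2368, where the main fit gave 2168. At 0.5% it gave 1856, where the main fit gave 1646.

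The relation to Cyp2b10, with alternatives chosen after seeing the data, gave 9 called members with median centring (7.32% of all genes) and 11 with a pseudocount of 1 (11.8%). It gave 4 to 12 with each injected mouse left out in turn (1.59% to 16.7%). The number of arrays and, for dim members, the signal over background limit the precision.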

Other observations

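Cyp2a5, which oxidises coumarin and nicotine, shares its probe set with Cyp2a4 and so is no member. That probe set had a mean signal of 1468 ± 285 (SD, n = 5) in untreated and 7224 ± 651 in STZ liver, and of 9549 ± 3723 and 7546 ± 2202 at 0.1% and 0.5% phloridzin. The lowest STZ mouse (6133) was above the highest untreated mouse (1912). It was not part of the fit and the share of each gene is unknown. The same holds for a dim probe set shared by Cyp3a41b and Cyp3a41a, the second of which the rule leaves out. Its mean signal was 19.9 in untreated and 76.8 in STZ liver, and 74.5 and 80.8 at 0.1% and 0.5% phloridzin. The lowest STZ mouse (47.2) was above the highest untreated mouse (32.2).

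For members with several probe sets, the used and the other probe sets differed from untreated liver in the same direction in STZ mice for Cyp2b10, Cyp2d13, Cyp2d22, Cyp2j5, Cyp2j6 and Cyp2u1. The second probe set of Cyp2j5 had a difference of −0.96 and the used one −0.62. For Cyp2d13 the values were −0.51 and −0.90. The 3 probe sets of Cyp1b1, all dim, had differences of 0.05, −0.02 and 0.23.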
